A study of Mus musculus with 64 samples.

Results

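Transcripts of 10 heat shock protein genes were followed in the hippocampus and the liver of mice given corticosterone (CORT). The genes, Hspa1a, Hspa1b, Hspa8, Hsph1, Dnajb1, Bag3, Hspb1, Hspa5, Hspd1 and Hspe1, were taken by symbol, and all 10 were found among the 55414 gene IDs of the acute cohort and the 55573 of the continuous cohort. The data were 64 RNA-seq libraries of male F1 hybrid mice aged 10 to 18 weeks, either wild type (WT) or Angelman syndrome (AS) model mice, which carry the Ube3a m-/p+ genotype, a maternal allele without exon 5 on a C57BL/6J and 129sv background. In the acute cohort, hippocampi were collected 3 h after a subcutaneous injection of 3 mg/kg CORT or of vehicle, with 6 mice in each of the 4 groups. In the continuous cohort, the hippocampus and the liver of the same mice were collected after 5 days with a pellet of 20 mg CORT or with a vehicle pellet, with 5 mice in each of the 4 groups. The maternal allele is lost in every cell of the AS mice, but the paternal allele is silent only in neurons, so that hippocampal glia and liver cells keep 1 working copy.

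Heat shock proteins are molecular chaperones that bind unfolded stretches of other proteins. Under protein-damaging stress, the transcription factor HSF1 binds heat shock elements, inverted repeats of the letters GAA, and raises the transcription of inducible members, whereas Hspa8 serves as the constitutive form of the same HSP70 family. Chaperones of the HSP70 and HSP90 families also fold the glucocorticoid receptor, the receptor of CORT, into the form that binds the hormone.

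Sequences upstream of the transcription starts are given first, since they show which members hold the letters of a heat shock element and how alike the inducible pair is there. RefSeq start sites on GRCm38.p6 gave 12 windows for 9 of the 10 genes, all except Hspa8. Hspa1a and Hspa1b, neighbouring genes for near-identical inducible HSP70 proteins, lie on the minus strand of chromosome 17, and the 250 bases before their starts hold no exon in GENCODE. The windows are chr17:34972157-34972406 for Hspa1a and chr17:34959239-34959488 for Hspa1b, printed with the letters GAANNTTC in capitals.
Hspa1a: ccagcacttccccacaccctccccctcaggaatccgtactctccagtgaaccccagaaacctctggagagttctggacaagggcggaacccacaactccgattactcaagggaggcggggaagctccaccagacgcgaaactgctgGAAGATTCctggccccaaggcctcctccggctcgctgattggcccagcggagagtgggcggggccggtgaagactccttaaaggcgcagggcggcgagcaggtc
Hspa1b: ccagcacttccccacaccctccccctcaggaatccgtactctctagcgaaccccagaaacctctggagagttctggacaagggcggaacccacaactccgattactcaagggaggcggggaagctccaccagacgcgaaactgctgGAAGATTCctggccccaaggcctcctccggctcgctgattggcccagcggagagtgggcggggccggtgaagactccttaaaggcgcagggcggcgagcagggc
Between them 247 bases were identical and 3 differed, with 0 gaps, and the capitals stood 104 to 97 bases before the start in both.

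Shorter stretches are shown for the other members with a match, to place it. The windows of these genes except Hspb1 overlap exons. Hspd1 and Hspe1, genes of the mitochondrial chaperonin and its lid, are read away from each other from a shared promoter, so that both show the same 30 bases of chr1:55088053-55088082 from opposite strands, with an unbroken series of alternating GAA and TTC units in capitals. Hspa5, for the HSP70 protein of the endoplasmic reticulum (ER), shows an ER stress element, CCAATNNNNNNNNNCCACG, on the plus strand at chr2:34772020-34772049. Hspb1, a small heat shock protein gene, is shown for the plus strand at chr5:135887801-135887830. Hsph1, for an HSP110 nucleotide exchange factor, is shown for the minus strand at chr5:149636351-149636380.
Hspd1: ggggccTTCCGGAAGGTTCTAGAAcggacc
Hspe1: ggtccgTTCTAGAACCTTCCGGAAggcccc
Hspa5: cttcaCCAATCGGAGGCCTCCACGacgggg
Hspb1: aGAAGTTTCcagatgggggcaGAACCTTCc
Hsph1: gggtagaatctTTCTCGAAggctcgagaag
Both strands of the 250 bases before the start were searched in 32851 RefSeq windows. GAANNTTC was in 6.69% of them and in windows of Hspa1a, Hspa1b, Hspb1, Hspd1 and Hspe1. Its other phase, TTCNNGAA, was in 7.17% of them and in windows of Hsph1, Hspd1 and Hspe1, and in a run of 3 or more units the phases share letters. One or the other was in 12.8% of all windows and in 7 of the 12 windows of the members. Those belong to 6 of the 9 genes, Bag3 and Dnajb1 being 2 of the 3 without. Runs of 3 units were in 0.466% of all windows and only in Hspd1 and Hspe1 of the 9. The ER stress element was in 0.113% of windows and in Hspa5 alone of the 9, and a glucocorticoid response element, the letters AGAACA and TGTTCT with 3 bases between them, was in 0.00913% of windows and in 0 of the 9 genes.

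Counts on genes ranged from 18612550 to 21783009 per library used, so that 3 counts corresponded to 0.135 to 0.16 CPM, the counts scaled to library size with TMM normalization. The continuous hippocampal libraries H9 (AS vehicle) and H13 (WT vehicle), which the authors called technical outliers, were left out. The fits held 62 libraries, with 4 mice in each hippocampal vehicle group of that cohort. Hspa1b was lower in H9 and H13 than in the other 18 libraries, at 2.66 and 0.708 CPM against 5.65 to 13.8 CPM when all 20 were scaled together. Hspa1a was lower in both as well (3.90 and 1.42 against 4.79 to 9.38 CPM), whereas Hspb1 was higher in both (6.07 and 5.71 against 2.87 to 5.25 CPM). Ube3a counts on the whole gene were lower in AS liver (28.5 to 38.6 CPM) than in WT liver (41.8 to 54.4 CPM), whereas the genotypes overlapped in the hippocampus. In both tissues these counts also cover exons outside the deletion, and the reason for the overlap was not tested. Summed neuron markers reached 10700 to 16100 CPM in the hippocampus, and hepatocyte markers 94700 to 146000 CPM in the liver. The glucocorticoid receptor target Fkbp5 rose with CORT in each tissue and genotype, by log2 0.58 to 4.14. In bulk tissue, fewer cells of a type and less RNA per cell cannot be told apart. Acute libraries fell into 2 sets by how many reads the counting had discarded as poorly aligned (low-quality reads), 1877 to 2237 in 16 libraries (12 WT and 4 AS vehicle) and 2640 to 2850 in 8 (2 AS vehicle and 6 AS CORT).

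The order of the members by level was led by Hspa8 in the hippocampus and by Hspa5 in the liver. Per kilobase of exon, the constitutive HSP70 gene Hspa8 had a median of 285 RPKM in the acute and 294 RPKM in the continuous hippocampus, far from the next gene in each, Hspa5 at 45.1 RPKM and Hspd1 at 67.2 RPKM. Hspa5 (33.8 to 57.3 RPKM), Hsph1 (29.4 to 41.6 RPKM) and Hspd1 (33.0 to 43.1 RPKM) overlapped in the acute hippocampus. Hspa1a and Hspa1b closed the order in all 3 datasets, with medians of 2.06 and 2.38 RPKM in the acute hippocampus, but their levels are understated by an unknown amount, because reads shared by the near-identical pair are not counted while the whole exon length is used. In the liver, Hspa5 (120.0 to 346 RPKM), Hspd1 (155 to 195 RPKM) and Hspa8 (74.0 to 213 RPKM) overlapped at the top, and Hspe1 followed with 52.2 to 78.5 RPKM.

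Liver and hippocampus were compared in WT mice with a vehicle pellet. Tissue differences passed the edgeR quasi-likelihood test for 7 of the 10 genes, where 89.6% of all 15937 genes tested passed. One of the 7, Hspa1a, met the filter on low counts through the hippocampus alone, so that its call was fixed by the filter. Members of the ER and the mitochondria were higher in the liver, Hspa5 by log2 2.71 (SE 0.235), Hspd1 by 2.37 (SE 0.0681) and Hspe1 by 1.88 (SE 0.1). Bag3, a cochaperone that releases substrates from HSP70 and leads them to autophagy, was higher in the liver by 2.58 (SE 0.201), and Hspb1 by 1.61 (SE 0.223). Hsph1 was lower in the liver (log2 fold change -2.005, SE 0.193). Hspa1a had 1 to 8 counts in the WT vehicle livers, around the floor of 3 counts, and no fold is given for it. Dnajb1, the J-domain partner of HSP70, did not pass (-0.23, adjusted p = 0.212), nor did Hspa8 (-0.13, adjusted p = 0.509) or Hspa1b (-0.29, adjusted p = 0.472). The median over all genes was -0.16 on this scale. Of related genes, 20 of 21 of the list of ER chaperones and the unfolded protein response were higher in the liver (median 2.32), as were 6657 of all 15937 genes, among them P4hb (4.72), Ern1 (3.71) and Dnajc3 (3.07), and so were all 8 mitochondrial chaperones and proteases tested (median 2.19).

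The 2 inducible HSP70 genes differed in their ratio between tissues. In the hippocampus Hspa1a held 38.3% to 55.8% of the summed Hspa1a and Hspa1b counts of an acute library (median 47.4%) and 38.3% to 52.9% of a continuous one (median 43.1%). In the liver it held 2.7% to 14% (median 6.99%), with 1 to 12 Hspa1a counts per library, and it passed no filter there and was not tested. The liver therefore carried 9 members in its tests. Reads that fit both genes equally well are not counted for either, so each gene's counts come from the positions where they differ, and the split between them is uncertain. Hspa1a also overlaps Gm20481 (0 to 5 counts per library) on the opposite strand, and if counting ignored strand, reads from the overlap are not counted for either.

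Continuous CORT raised both inducible HSP70 genes in the WT hippocampus. Hspa1a stood at 6.29, 5.39, 5.69 and 5.50 CPM in the 4 vehicle mice and at 7.88, 8.90, 7.70, 8.51 and 9.32 CPM in the 5 CORT mice. Each CORT mouse lay above each vehicle mouse, and the groups were apart in either direction for 6.16% of all genes. Hspa1b stood at 5.61, 6.07, 9.07 and 7.35 CPM with vehicle and at 7.55, 11.9, 10.2, 13.7 and 13.5 CPM with CORT. Here 19 of the 20 pairs of mice had the CORT mouse higher, the exception being the lowest CORT mouse against the highest vehicle mouse. The log2 fold change was 0.56 (SE 0.132, adjusted p = 0.0239) for Hspa1a and 0.70 (SE 0.164, adjusted p = 0.0247) for Hspa1b, which made 2 of 10 members, where 2.92% of all genes tested passed. With both genes summed, the log2 fold change was 0.64 (adjusted p = 0.00746). Adjusted p-values rose above the threshold, to at most 0.0776 for Hspa1a and 0.087 for Hspa1b, without each of 4 and 5 single mice (H4, H6, H17 or H20, and H1, H4, H15, H17 or H20). With only these 2 groups fitted, Hspa1b had the same log2 fold change and did not pass (adjusted p = 0.108). With all 20 libraries fitted, H9 and H13 included, the log2 fold changes were 0.80 and 0.99 and neither passed (adjusted p = 0.141 and 0.219).

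**Figure D1:**
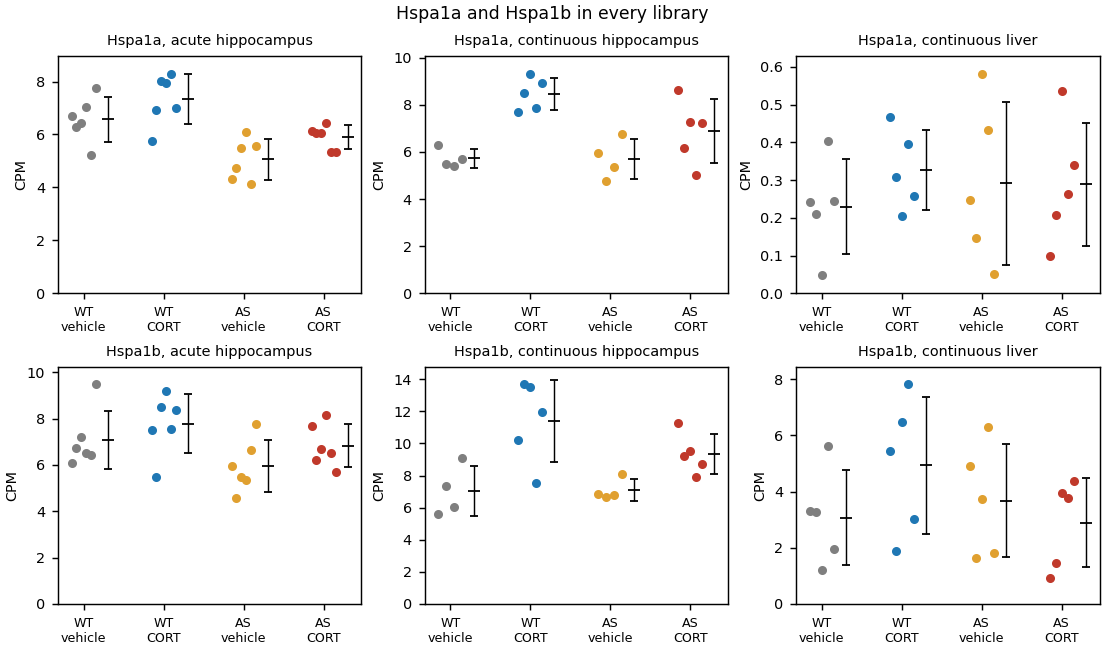
Points are the CPM of Hspa1a and Hspa1b in each library used, by group and dataset, and bars are group means with SD. In the continuous hippocampus the 5 WT CORT mice lie at 7.70 to 9.32 CPM of Hspa1a, above the 4 WT vehicle mice at 5.39 to 6.29 CPM.

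In the AS hippocampus the same genes did not pass after continuous CORT. Hspa1a had 6.76, 5.96, 4.76 and 5.36 CPM with vehicle and 5.03, 7.23, 8.64, 6.15 and 7.28 CPM with CORT. The groups overlapped, although 3 of the 5 CORT mice lay above all vehicle mice. Hspa1b had 8.11, 6.83, 6.69 and 6.77 CPM with vehicle and 7.89, 8.74, 11.2, 9.20 and 9.55 CPM with CORT, with 4 of the 5 CORT mice above all vehicle mice. The log2 fold changes were 0.27 (SE 0.133, adjusted p = 0.362) and 0.39 (SE 0.164, adjusted p = 0.245), and 0 of 10 members passed, where 3.77% of all genes did. DESeq2 and limma-voom called 0 as well (5.1% and 5.83% of all genes), and 1 member had an unadjusted p under 0.05, as did 15.2% of all genes. The difference between the genotypes was itself tested and did not pass for any member (0 of 10, with 0% of all genes passing and 561 genes at an unadjusted p under 0.05). For Hspa1a the CORT effect in AS minus that in WT was -0.30 (SE 0.186, adjusted p = 1), and for Hspa1b it was -0.31 (SE 0.231, adjusted p = 1).

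Averaged over the genotypes, the continuous hippocampal effect was 0.42 for Hspa1a (SE 0.0934, adjusted p = 0.00704) and 0.55 for Hspa1b (SE 0.116, adjusted p = 0.00463). These were the 2 members of 10 that passed, where 9.67% of all genes did. Leaving out any 1 of the 18 libraries kept both past the threshold, with adjusted p-values of at most 0.0181 and 0.012. With H9 and H13 included neither passed, at adjusted p = 0.0617 and 0.0883. Other cell types moved with the WT contrast. Summed microglia markers (6 of 6 genes above the floor) were at 345 to 385 CPM with vehicle and 297 to 336 CPM with CORT, and endothelium markers (6 of 6) at 166 to 193 and 134 to 158 CPM. Blood markers (5 of 5) were at 40.9 to 58.8 and 75.3 to 186 CPM, and choroid plexus markers (8 of 8) at 77.8 to 2910 and 36.6 to 129 CPM. Their part in the Hspa1a and Hspa1b result was not tested.

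The other 8 members did not pass in the continuous hippocampus. In WT mice Hspb1 had a log2 fold change of 0.34 (adjusted p = 0.181), Hspa5 of 0.26 (0.502), Hsph1 of 0.24 (0.166), Dnajb1 of 0.14 (0.488), Hspa8 of 0.13 (0.496), Bag3 of 0.11 (0.79), Hspd1 of 0.08 (0.515) and Hspe1 of 0.00 (0.993). All 10 values were above 0, as were 51.1% of those of all genes tested, with a median of 0.19 against 0.003 for all genes. In AS mice 8 of the 10 values were above 0, as were 49% of those of all genes, with a median of 0.03. Members varied together between mice of this dataset (45 of 45 pairs with r above 0), so their values are not independent of each other. Among related genes, averaged over the genotypes (9.67% of all genes passing), 2 of 17 in the HSP90 list rose, the immunophilin Fkbp5 (0.82) and Cdc37l1 (0.22), and 1 of 10 nucleotide exchange factors, Bag5 (0.24). In the other lists of heat shock factors, HSP70, J-domain, small heat shock, CCT chaperonin, ER and mitochondrial genes, 0 members passed.

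**Figure D2:**
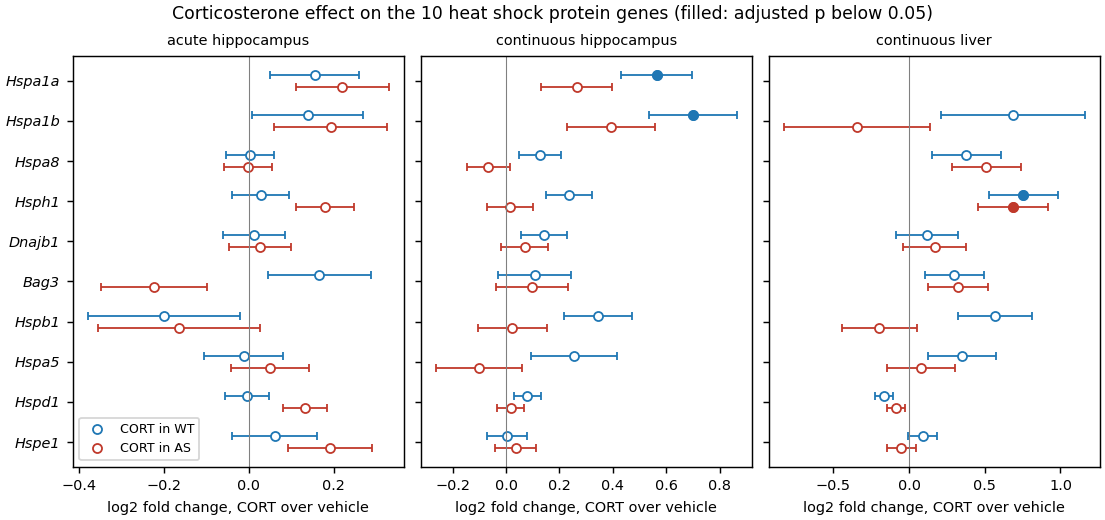
Points are log2 fold changes of CORT over vehicle for the 10 genes in WT and AS mice of each dataset, with bars of 1 SE, and filled points passed an adjusted p of 0.05. Filled points are Hspa1a and Hspa1b in the WT continuous hippocampus and Hsph1 in the liver of both genotypes.

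In the liver, continuous CORT raised Hsph1, the HSP110 gene, in both genotypes. WT mice had 29.8, 52.3, 46.5, 25.6 and 34.5 CPM with vehicle and 58.7, 69.8, 53.5, 76.8 and 59.6 CPM with CORT, and the groups did not overlap, as for 14.1% of all genes. AS mice had 44.0, 16.6, 21.2, 24.1 and 25.3 CPM with vehicle and 49.6, 52.6, 30.4, 35.0 and 43.7 CPM with CORT. Here 22 of the 25 pairs had the CORT mouse higher, since the highest vehicle mouse, L2, lay above 3 CORT mice. The log2 fold change was 0.75 (SE 0.228, adjusted p = 0.0248) in WT and 0.69 (SE 0.23, adjusted p = 0.0315) in AS mice. It was 1 member of 9 in each, where 18.6% of all genes passed in WT and 27.5% in AS mice. Hsph1 lost its call without single mice, 5 in the WT contrast (L1, L5, L13, L15, L17, adjusted p up to 0.0728) and 7 in the AS contrast (L7, L8, L9, L11, L14, L18, L19, adjusted p up to 0.0861). With only the 2 AS groups fitted it did not pass either (0.69, adjusted p = 0.0576). The effects differed between genotypes by -0.07 (SE 0.323, adjusted p = 0.962), and 0 of 9 members passed this interaction, with 0% of all genes passing and 995 at an unadjusted p under 0.05.

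Averaged over the genotypes, 3 of 9 members passed in the liver, where 37.1% of all genes did. Hsph1 rose by 0.72 (SE 0.162, adjusted p = 0.00153), with a range of 0.65 to 0.85 when single libraries were left out. Hspa8 rose by 0.44 (SE 0.162, adjusted p = 0.0369), but this call was lost without any 1 of 13 of the 20 libraries, L3, L5, L6, L7, L8, L9, L11, L13, L14, L17, L18, L19 or L20, with adjusted p up to 0.0904. Hspd1 fell (log2 fold change -0.13, SE 0.0428, adjusted p = 0.0246) and stayed past the threshold without any 1 library, with adjusted p at most 0.049.

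For Hspa8 the liver values were 617, 788, 494, 510.1 and 477 CPM in WT vehicle and 783, 715, 636, 698 and 915 CPM in WT CORT mice. In AS mice they were 721, 318, 362, 356 and 358 CPM with vehicle and 856, 739, 401, 426 and 591 CPM with CORT. Groups overlapped in both genotypes, and the AS vehicle mouse at 721 CPM was again L2, the mouse with the highest Hsph1 of its group. Hspd1 values were 514, 506, 469.5, 484 and 412 CPM in WT vehicle and 409, 417, 425, 429 and 443 CPM in WT CORT mice, with 1 vehicle mouse among the CORT mice. In AS mice they were 433 to 488 CPM with vehicle and 409 to 468 CPM with CORT, and Hspd1 passed in neither genotype alone (WT -0.17, adjusted p = 0.0593, AS -0.09, adjusted p = 0.31). Beside these results, macrophage markers (6 of 6) were at 56.7 to 73.4 CPM in WT vehicle and 34.6 to 45.2 CPM in WT CORT livers, and fibroblast markers (6 of 6) at 294 to 376 and 435 to 498 CPM. Blood markers (5 of 5) were at 343 to 574 and 229 to 328 CPM, and in AS livers these 3 sums moved the same way. In AS livers hepatocyte markers (8 of 8) were at 94700 to 126000 CPM with vehicle and 121000 to 146000 CPM with CORT, and stellate and biliary markers (6 of 6) at 69.2 to 110 and 53.8 to 69.8 CPM. The share of reads on no gene was 19.1% to 23.3% with vehicle and 17.8% to 19.6% with CORT in WT livers, and 18.1% to 20.8% and 15.4% to 18.3% in AS livers. The part of these measures in the Hsph1, Hspa8 and Hspd1 results was not tested.

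**Figure D3:**
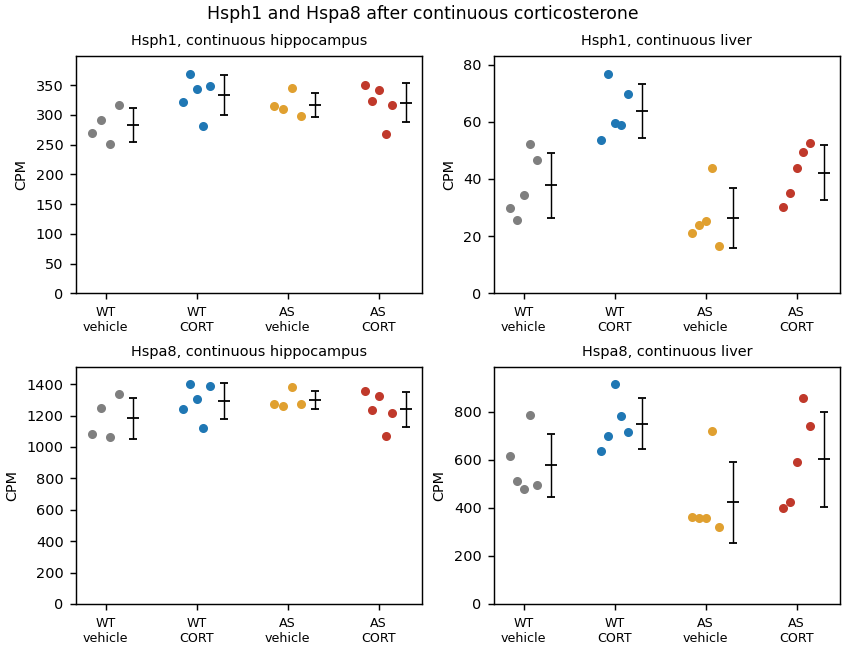
Points are the CPM of Hsph1 and Hspa8 in each continuous hippocampal and liver library used, with group means and SD. In the liver the 5 WT CORT mice lie at 53.5 to 76.8 CPM of Hsph1, above the 5 WT vehicle mice at 25.6 to 52.3 CPM.

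The remaining liver members did not pass and differed in their spread between mice. Within groups the CV was 49.5% to 54.8% for Hspa1b and 8.85% to 11.8% for Hspe1. Hspa1b ranged from 0.932 to 7.82 CPM over the 20 livers, a ratio of 8.39, against 4.64 for Hsph1 and 1.26 for Hspd1. Its log2 fold change with CORT was 0.68 in WT (SE 0.475) and -0.35 in AS mice (SE 0.483), and the difference of -1.03 (SE 0.677) had an adjusted p of 0.688. For Hspb1 the value was 0.57 in WT livers (adjusted p = 0.115), against -0.20 in those of AS mice (adjusted p = 0.601). Hspa5 had 0.35 and 0.08, Bag3 0.30 and 0.32, Dnajb1 0.12 and 0.17, and Hspe1 0.09 and -0.05, with adjusted p-values of 0.243 or more.

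Lists of related chaperone genes are given for the same liver contrast, averaged over the genotypes, in which 37.1% of all genes passed in either direction. In the HSP90 list 9 of 17 genes rose and 1 fell, with Fkbp5 at 3.79, Chordc1 at 0.40 and Hsp90ab1, a cytosolic HSP90, at 0.27. Of 9 other HSP70 and HSP110 genes, 3 rose and 2 fell, among them Hspa4l (0.61) and Hspa4 (0.18), which are HSP110 genes like Hsph1, and Hspa9 (-0.19), the mitochondrial HSP70. In the J-domain list 7 of 18 rose, among them Dnaja3 (0.39), Dnajc21 (0.36) and Dnajb12 (0.23), and in the CCT chaperonin list 4 of 8, among them Cct2 (0.21). ER genes rose in 7 of 21 cases, with Herpud1 at 0.83 and Dnajc3 at 0.36, whereas Hspa5 did not pass (0.21, adjusted p = 0.314). Of the mitochondrial list 1 rose and 3 fell of 8, Trap1 at -0.17 among the latter, and 2 of 5 heat shock factors and regulators rose, Hikeshi (0.32) and Hsbp1 (0.22). Nucleotide exchange factors had 1 higher and 2 lower of 10, with Bag1 at 0.38 and Bag2 at -0.38, and 1 of 4 small heat shock genes rose, Hspb8 (0.44). List medians ran from -0.04 to 0.15, against -0.003 over all genes.

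The CORT effect in the liver minus that in the hippocampus, averaged over the genotypes, was 0.62 for Hsph1 (SE 0.185, adjusted p = 0.0144), 1 member of 10 where 19.9% of all genes passed. It kept its call without any 1 mouse (0.56 to 0.77, adjusted p at most 0.0376). With libraries of the same number taken as 1 mouse and fitted as a block, it was 0.53 (adjusted p = 0.0379). For Hspa8 the difference was 0.44 (adjusted p = 0.101), for Hspd1 -0.15 (adjusted p = 0.0851), and for Hspa1b -0.35 (SE 0.369, adjusted p = 0.582).

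Acute CORT moved no member past the threshold. Of the 10 genes, 0 passed in WT mice, where 1.48% of all genes did, 0 in AS mice, where 17.9% did, and 0 averaged over the genotypes, where 7.02% did. At an unadjusted p under 0.05 stood 0 members in the WT contrast and 2 in the AS contrast, Hsph1 (0.18, adjusted p = 0.0657) and Hspd1 (0.13, adjusted p = 0.0756), where 10.7% and 33.5% of all genes did. DESeq2 also called 0 in each (1.94% and 19.9% of all genes), whereas limma-voom with quality weights called 0 in the WT and 4 in the AS contrast (2.33% and 34.6% of all genes). Hspa1a had 5.22 to 7.77 CPM (median 6.56) in WT vehicle, 5.77 to 8.30 CPM (median 7.46) in WT CORT, 4.12 to 6.08 CPM in AS vehicle and 5.34 to 6.44 CPM (median 6.05) in AS CORT mice, and the treatment groups overlapped in both genotypes. Its log2 fold change was 0.16 in WT (SE 0.105) and 0.22 in AS mice (SE 0.109, adjusted p = 0.155), and that of Hspa1b 0.14 (SE 0.13) and 0.19 (SE 0.133). For Hspa8 it was 0.00 in both (SE 0.0566). Of the related lists, 1 gene passed in WT mice, Fkbp5 (0.82).

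AS and WT mice differed in 3 members after acute CORT, where 24.9% of all genes passed. Bag3 was lower in AS mice, at 13.5 to 21.9 CPM (median 15.5) against 22.4 to 27.9 CPM (median 25.4), a log2 fold change of -0.65 (SE 0.123, adjusted p = 0.000803). Hspa1a was lower as well (-0.31, SE 0.106, adjusted p = 0.0313), whereas Hspd1 was higher, at 102 to 114 CPM against 92.1 to 100.4 CPM (0.14, SE 0.052, adjusted p = 0.0471). The genotypes did not overlap for Bag3 and Hspd1, as for 11.1% of all genes, and overlapped for Hspa1a. Bag3 kept its call without any 1 mouse (adjusted p at most 0.00287), Hspa1a lost it without H7, H8, H12, H23 or H24 (adjusted p up to 0.0693), and Hspd1 lost it without any 1 of 14 mice, H3, H6, H9, H10, H11, H12, H16 to H22 or H24 (adjusted p up to 0.119). The other 7 members did not pass, Hspe1 (0.24, adjusted p = 0.0811) and Hspb1 (-0.40, adjusted p = 0.118) coming nearest. With vehicle, 0 of 10 passed, where 0.157% of all genes did, and Hspa1a had -0.38 (SE 0.108, adjusted p = 0.163). The difference of the CORT effects passed for 0 of 10, where 4.49% of all genes passed, and that of Bag3 was -0.39 (SE 0.174, adjusted p = 0.172).

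The 2 sets of acute libraries bear on these values. All 6 AS CORT libraries had 2640 to 2785 low-quality reads and all 6 WT CORT libraries had 1929 to 2237, so the set and the genotype cannot be told apart in this contrast. Within the AS vehicle group, Bag3 was at 19.3 to 23.2 CPM in the 4 libraries with fewer such reads and at 14.3 to 14.4 CPM in the 2 with more, H17 and H18. Hspd1 was at 87.1 to 96.9 and 107 to 109 CPM in the same libraries, whereas Hspa1a, at 4.33 to 6.08 and 4.12 to 5.58 CPM, overlapped between them. The second set was also higher for Hspe1 (21.9 to 26.2 against 30.6 to 33.5 CPM), Hsph1 (214 to 261 against 276 to 284 CPM) and Hspa1b (4.59 to 5.94 against 6.64 to 7.79 CPM), while the remaining 4 members overlapped. For Hspa1b the AS against WT value with CORT had the opposite sign (-0.19, adjusted p = 0.297). The share of all genes that lie apart between these 4 and 2 libraries was not computed, so the number of members apart has no background beside it. With the set of libraries (fewer or more low-quality reads) as a covariate, 0 of the 3 passed, as did 0% of all genes. Bag3 was then at -0.08 (adjusted p = 0.981), Hspa1a at -0.23 (0.938) and Hspd1 at -0.08 (0.941). Only the AS vehicle group held both sets, so this adjustment rests on its 4 and 2 libraries. Taking only H17 and H18 as AS vehicle mice, CORT in AS mice gave 0.18 for Bag3 (adjusted p = 0.89) and -0.02 for Hspd1 (0.989), where 0.89% of all genes passed. With only the other 4, H13 to H16, it gave -0.40 for Bag3 (0.0103), 0.20 for Hspd1 (0.0041), 0.35 for Hspe1 (0.00555) and 0.26 for Hsph1 (0.00639), where 30.3% of all genes passed. Neuron markers (8 of 8) summed to 12700 to 14500 CPM in AS CORT and 13900 to 16100 CPM in WT CORT mice, and immediate early genes (9 of 9), which mark recent activity, to 219 to 506 and 378 to 648 CPM. Oligodendrocyte markers (6 of 6) summed to 1690 to 3330 CPM (median 2390) in AS CORT and 1960 to 5890 CPM (median 3350) in WT CORT mice, and within groups over 24 mice the r with Bag3 was 0.488 for these (adjusted p = 0.324) and 0.643 for the immediate early genes (adjusted p = 0.1). The part of these sums was not tested.

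**Figure D4:**
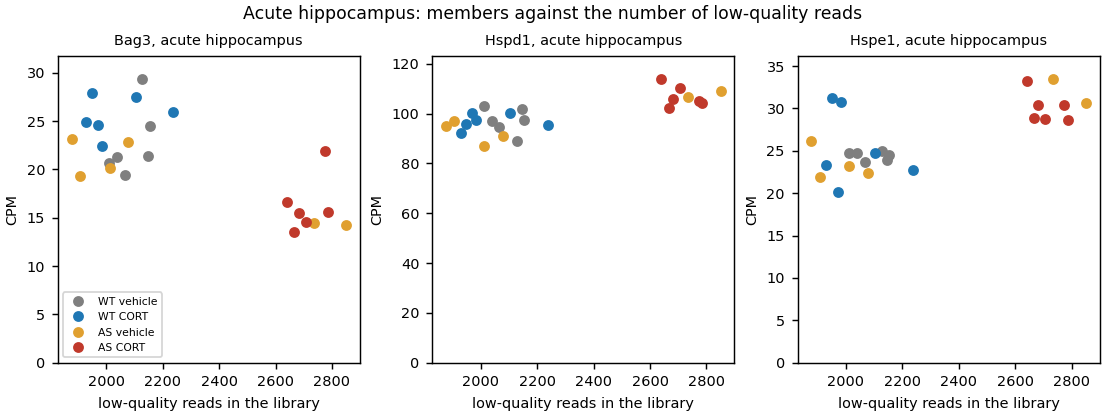
Points are the 24 acute libraries, with the number of low-quality reads on the x axis and the CPM of a member on the y axis, by group. Bag3 lies at 14.3 to 14.4 CPM in the 2 AS vehicle libraries with more such reads and at 19.3 to 23.2 CPM in the other 4.

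Among related genes in the same acute contrast, in which 24.9% of all genes passed in either direction, 2 of 5 heat shock factors and regulators were lower in AS mice, Hsf4 (-0.46, adjusted p = 0.000396) and Hsf1 (-0.37, adjusted p = 0.00201), as were 3 of 4 small heat shock genes, Hspb6 (-0.75), Cryab (-0.54) and Hspb8 (-0.45). Nucleotide exchange factors split, 3 higher and 2 lower of 10, with Grpel2 (0.33), Sil1 (0.28) and Bag4 (0.18) named by the smallest p. Of the HSP90 list 2 of 17 were higher, Hsp90aa1 (0.25) and St13 (0.21), and 1 lower, Tomm34 (-0.21). ER genes split 2 to 3 of 21, with Atf6 (0.43) higher and Xbp1 (-0.34) and Herpud1 (-0.24) lower. Of 9 other HSP70 and HSP110 genes 1 was higher, Hspa4 (0.19), the J-domain list had 2 higher and 1 lower of 19, and 0 of the CCT and mitochondrial lists passed. These lists share the mice, and the 2 sets of libraries, of the Bag3 result. With the set of libraries as a covariate none of these genes passed, as 0 of all 14611 genes did.

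In the continuous cohort no member passed between the genotypes, with edgeR, DESeq2 or limma-voom. The last 2 called 0.0163% to 0.758% of all genes. In the hippocampus 0 of 10 passed with vehicle, where 0.0134% of all genes did, and 0 with CORT, where 0.0401% did. At an unadjusted p under 0.05 these were 0 and 3 members, where 7.34% and 10.2% of all genes did. In the liver 0 of 9 passed with vehicle, where 0.0163% did, and 0 with CORT, where 0.277% did, and the unadjusted counts were 1 and 3, beside 10.3% and 8.29% of all genes. Bag3, lower in acute AS CORT mice, had a log2 fold change of 0.14 (SE 0.127, adjusted p = 0.72) in the continuous CORT hippocampus. Hspa1a had -0.30 there (SE 0.122, adjusted p = 0.42), beside -0.31 in the acute cohort, and neither gene passed in the continuous cohort. With vehicle, the Hspa1a values of the cohorts were unlike, at -0.0021 (SE 0.141, adjusted p = 0.998) in the continuous and -0.38 in the acute hippocampus. Hsph1 was lower in each AS CORT liver (30.4 to 52.6 CPM) than in any WT CORT liver (53.5 to 76.8 CPM), a separation found for 2.18% of all genes, but its log2 fold change of -0.59 (SE 0.227) did not pass (adjusted p = 0.46). Hspb1 (-0.74, adjusted p = 0.349) and Hspa5 (-0.56, adjusted p = 0.481) did not pass there either.

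Relations among the members were computed across mice. With group means removed from log2 CPM, Pearson's r was computed for each pair of members, with permutation p-values adjusted over the pairs of a dataset. In the continuous hippocampus 45 of 45 pairs had r above 0 (median 0.479, 18 mice), where 49.8% of the pairs of all genes did, and 12 passed. Hspa8 and Hsph1, which work as a chaperone and its exchange factor, moved most closely, with r = 0.97 and rho = 0.963 (adjusted p = 0.00045 and 0.000225, from the smallest permutation p possible, 1e-05) and r = 0.959 without the 2 mice farthest from the median. Hspa8 also followed Hspa5 (r = 0.879, rho = 0.897) and Hspa1b (r = 0.842, rho = 0.868). In the liver 23 of 36 pairs were above 0 (median 0.292, 20 mice), beside 50% of the pairs of all genes, and 12 passed, 5 of them negative. Hspa1b rose and fell with Dnajb1 (r = 0.826, rho = 0.913, adjusted p = 0.00108 and 0.00036, r = 0.764 without 2 mice), and Hspa8 with Dnajb1 (r = 0.808, rho = 0.774). Hspb1 ran against Dnajb1 (r = -0.78, rho = -0.717, adjusted p = 0.0116 and 0.0104, r = -0.597 without 2 mice) and against Hspa8 (r = -0.753, rho = -0.615).

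In the acute hippocampus 37 of 45 pairs were above 0 (median 0.265, 24 mice), where 49.8% of the pairs of all genes were, and 2 passed. Dnajb1 and Hspa5 had r = 0.712 and rho = 0.72 (adjusted p = 0.0153 and 0.0234), 0.543 without 2 mice and 0.711 with means removed by group and set of libraries. Hspb1 and Hspa5 had r = 0.581 (adjusted p = 0.0407) and rho = 0.612 (adjusted p = 0.059). Against 15 read measures and marker sums, 0 of 150, 150 and 135 relations of members passed in the acute hippocampus, continuous hippocampus and liver, with 18, 23 and 16 at an unadjusted p under 0.05. In the continuous hippocampus 4 of these measures had r of 1 sign for all 10 members, -0.59 to -0.116 with the share of reads on no gene, -0.734 to -0.176 with astrocyte markers, -0.612 to -0.0667 with endothelium markers and 0.0578 to 0.622 with choroid plexus markers.

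**Figure D5:**
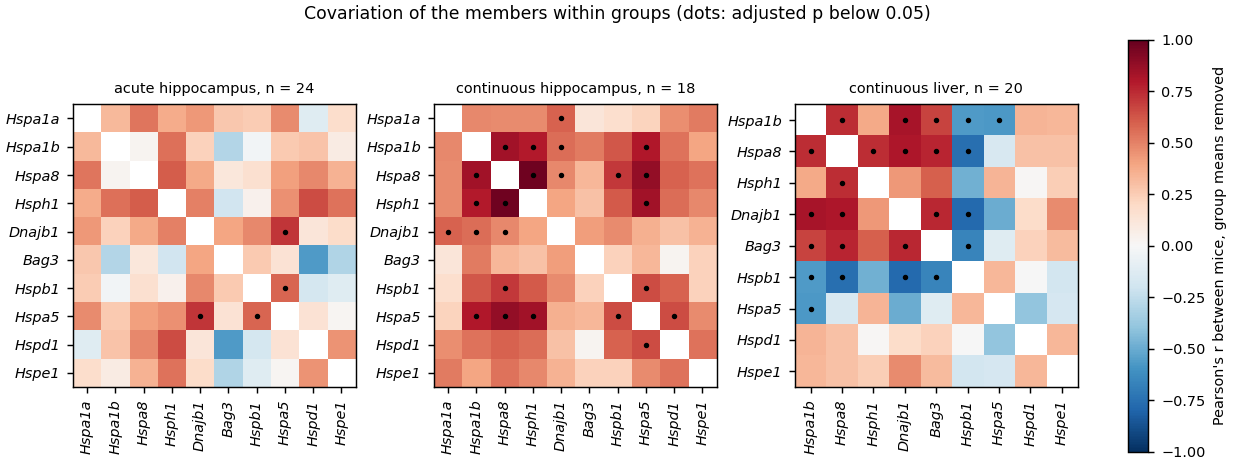
Cells show Pearson's r between members across mice with group means removed, from -1 (blue) to 1 (red), in each dataset, and dots mark an adjusted p below 0.05. The continuous hippocampus is red throughout (45 of 45 pairs above 0), while the liver holds 5 negative pairs with dots.

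The genes most like 3 members were then listed by the same measure among all genes tested, as a description with no p. Hspa5 was followed by ER genes in each dataset, Pdia4 (r = 0.829), Pdia6 (0.805) and Manf (0.789) in the acute hippocampus, Pdia6 (0.948), Calr (0.947) and Pdia3 (0.946) in the continuous hippocampus, and Manf (0.988), Creld2 (0.977) and Hyou1 (0.976) in the liver. Hspa1b had Gopc (0.737), Otud3 (0.731) and Cdv3 (0.717) in the acute hippocampus, Parp8 (0.878), Atp2a2 (0.862) and Hyou1 (0.85) in the continuous hippocampus, and Bcar1 (0.887), Ubp1 (0.881) and Cul3 (0.868) in the liver. Hspd1 had Gm3272 (0.873), Sdha (0.862) and Drc1 (0.841) in the acute hippocampus, and Lyn (0.783), Hadha (0.769) and Aldh3a2 (0.741) in the liver. With means removed by group and set of acute libraries, the values were 0.79 to 0.837 for Hspa5, 0.625 to 0.648 for Hspa1b and 0.675 to 0.772 for Hspd1. Hspd1 and Hspe1, which share the promoter shown above, overlap in the annotation, so that reads from their ends may not be counted for either.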

How the data were processed

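The authors prepared stranded mRNA libraries, sequenced them as 100-base read pairs, aligned the reads to mm10 with STAR and counted reads per gene with HTSeq-count in the BioWDL pipeline, and deposited raw counts per gene and library. Whether counting used strand is not given in the sources used here. Symbols and exon lengths came from GENCODE on GRCm38, matched for 52133 of 55414 and 55480 of 55573 gene IDs. Genes were tested where 3 or more libraries of a group held over 20 counts after median-of-ratios scaling, 14611 in the acute hippocampus, 14949 in the continuous hippocampus, 12273 in the liver and 15937 across both tissues. R 4.3.3 and the edgeR 4.0.16 quasi-likelihood test with TMM normalization and 1 coefficient per group gave log2 fold changes, standard errors and p-values adjusted by Benjamini-Hochberg over all genes tested, with 0.05 as the threshold. Effects averaged over the genotypes come from the same fits. RPKM used summed exon length. Correlations used log2 CPM with a prior count of 2 and 1e+05 permutations. Floors cover counting error only. Groups were taken from the sample labels, and replicates are separate mice. Alternatives were DESeq2 1.42.0, limma 3.58.1 (voom with quality weights), other scaling, no filter, GC and length correction, a replicate block, and leaving out each library. Scripts were tested on simulated data. Named genes are all 10 members, at most the 3 genes with the smallest adjusted p of each related list per contrast, and the 3 genes most like Hspa1b, Hspa5 and Hspd1. The members, gene lists and tests were chosen with earlier results of these data known, and effects averaged over genotypes, the relations with read measures and the means by set of libraries were added after seeing the data. Both tissues came from the same mice. Hippocampal and liver libraries with the same number have the same genotype and treatment in the labels and were taken to be 1 mouse, which the labels do not state. Deviations from group means of the 18 pairs correlated between -0.0376 and 0.0421 (median 0.0184). The genes most like Hspd1 in the continuous hippocampus are not reported here.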

Additional observations from a re-analysis of the deposited data

Results flagged for a closer look

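Among 120 combinations of a gene and a group, 9 had 1 mouse apart from the others of its group by Dixon's criterion, which chance meets in about 1 of 20 groups. In the acute hippocampus these were the WT CORT mouse H7 for Dnajb1 (58.1 CPM, the others 41.4 to 44.3 CPM) and for Hspb1 (5.59 CPM, the others 3.13 to 3.95 CPM), the WT vehicle mouse H6 for Hspa1b (9.48 CPM, the others 6.07 to 7.21 CPM) and the AS CORT mouse H20 for Hspe1 (33.2 CPM, the others 28.7 to 30.4 CPM). In the continuous hippocampus they were the AS CORT mouse H10 for Hspa5 (284 CPM, the others 206 to 228 CPM) and Hspd1 (200 CPM, the others 173 to 180.1 CPM), and the AS vehicle mice H2 for Hspa1b (8.11 CPM, the others 6.69 to 6.83 CPM) and H19 for Hspa8 (1380 CPM, the others 1260 to 1280 CPM). In the liver the AS vehicle mouse L2 had 721 CPM of Hspa8 (the others 318 to 362 CPM).

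The CORT effect on Hsph1 was larger in the liver than in the hippocampus by 0.62 on the log2 scale, the 1 member whose tissue difference passed the test.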

How the results depend on the processing

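Counts of members past the threshold depended on the setting as follows. Where no share of all genes stands beside a count, it was not computed for that setting, so the count cannot be set against it. With an adjusted p under 0.01, AS against WT with acute CORT kept 1 of 3, CORT in the WT continuous hippocampus 0 of 2, CORT in WT and in AS liver 0 of 1 each, the liver average 1 of 3 and the tissue difference 0 of 1. Without the filter AS against WT with acute CORT gave 1. With GC and length trends removed it gave 1, CORT in acute AS mice 1 and CORT in WT liver 2. With the covariate for the set of libraries, AS against WT with acute CORT gave 0, beside 0% of all genes, and Hspd1 reversed to -0.079. With only H17 and H18 as AS vehicle mice, AS against WT with vehicle gave 1 and with CORT 4 (1.4% and 27.3% of all genes, against 0.157% and 24.9% with all mice). With only H13 to H16, CORT in AS gave 4, AS against WT with CORT 4, the interaction 2 and the average 3, where 30.3%, 27.4%, 19.2% and 16.2% of all genes passed, against 17.9%, 24.9%, 4.49% and 7.02% with all mice, and the fourth member with CORT was Hspe1 in both (adjusted p = 0.0325 and 0.0368). With limma-voom CORT in acute AS mice gave 4, the acute interaction 2, CORT in AS liver 3 and the tissue difference 2 (34.6%, 22.9%, 32.4% and 23.8% of all genes), and with DESeq2 CORT in WT liver 2 and the tissue difference 2 (20.7% and 22.3%). Fitting only the groups compared gave 1 for CORT in the WT continuous hippocampus, Hspa1b losing its call, and 0 for CORT in AS liver. Summing Hspa1a and Hspa1b gave 1 for CORT in the WT continuous hippocampus and 1 for its average. This follows from merging the 2 genes that passed into 1, and the sum passed in both (adjusted p = 0.00746 and 0.00136). All 20 hippocampal libraries gave 0 for both and 2 for the tissue difference. Apart from the merging, the cause of these changes was not tested. Leaving out 1 library at a time gave 1 to 3 for AS against WT with acute CORT, 0 to 3 for CORT in acute AS mice (3 without H17 or H18), 0 to 2 for CORT in the WT continuous hippocampus, 0 to 2 in WT liver, 0 to 3 in AS liver, 2 to 4 for the liver average and 1 to 2 for the tissue difference. With the mouse as a replicate block, which pairs the tissues, 7 members passed between tissues and 1 in the tissue difference, as without it. Low counts limit Hspa1a in the liver.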
